A study of Mus musculus with 3 samples.

Results

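Messenger RNAs of 10 secreted or membrane-bound effector proteins of T cells were examined in activated regulatory T cells (Tregs) of the mouse: interferon gamma (Ifng), the interleukins Il2, Il4, Il5, Il13, Il21 and Il17a, tumour necrosis factor (Tnf), and the lymphotoxins Lta and Ltb. They were taken by symbol and GENCODE M21 gene identifier, 10 of the 55536 mouse genes in the deposited gene tables, together with their annotated transcripts. The material was polyadenylated RNA from primary cells labelled activated regulatory T cell, from a male donor aged 3 weeks, and 3 libraries numbered as technical replicates 1, 2 and 3 of 1 biological replicate formed the only group. No genotype, strain or stimulus is given in the sources used here, and there is no resting or conventional T cell group. The comparisons are therefore between genes and between these 3 libraries, and the p-values below speak of differences between the libraries only. Reads assigned to genes totalled 30362256, 28419259 and 31959927 in libraries 1, 2 and 3.

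Tregs are CD4+ T cells that depend on the transcription factor Foxp3 and restrain other lymphocytes. They respond to interleukin 2 but are known for making little of it, because Foxp3 takes part in silencing its gene. Effector T cells are classed by the cytokine they release: interferon gamma for type 1, interleukins 4, 5 and 13 for type 2, and interleukin 17A for type 17 cells. Lymphotoxin beta stays at the cell surface in a complex with lymphotoxin alpha and is best known for its part in building lymph nodes, whereas lymphotoxin alpha alone is secreted and, like tumour necrosis factor, binds the TNF receptors.

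The label was checked against marker genes. All 7 Treg markers were detected, with a summed level of 2225 to 2422 TPM, a share of all transcripts after division by transcript length, and Foxp3 stood at 135, 150 and 106 TPM in libraries 1, 2 and 3. Library 1 stood apart in erythroid transcripts: haemoglobin and 2 other erythroid genes summed to 13987 TPM there against 1177 and 808 TPM in libraries 2 and 3. Those genes take part of the fixed total, and the tests and fold ranges between libraries below use reads scaled by TMM, a trimmed-mean normalization of edgeR. Levels and marker sums below are in TPM, without this scaling.

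The genes lie at 5 places in the genome, and 3 of these hold more than 1 of them. Ltb, Tnf and Lta lie within 10.9 kb of chromosome 17, Il4, Il13 and Il5 within 122 kb of chromosome 11, and Il2 and Il21 within 112 kb of chromosome 3, while Ifng is on chromosome 10 and Il17a on chromosome 1. Windows of up to 250 bases before the RefSeq start sites are printed for Ltb, Tnf, Lta, Ifng, Il13 and Il4. Those of Il2, Il5, Il21 and Il17a are counted in the next paragraph but not printed. The sequences run 5′ to 3′ on the gene's own strand and come from RefSeq on GRCm38.p6, which has the coordinates of mm10. Any relation of these sequences to the differences between libraries was not tested. Capitals mark 4 short patterns on either strand: the NFAT core GGAAA, the AP-1 pattern TGANTCA, the TATA box TATAAA and the kappa-B pattern GGAAANNCC, which holds the NFAT core within it. The first 3 windows belong to the chromosome 17 genes. The next belong to Ifng and Il13, and the last pair to the separate start regions of Il4. The Ltb window stops at base 182, before the annotated first exon.
Ltb, chr17:35194257-35194438, plus strand: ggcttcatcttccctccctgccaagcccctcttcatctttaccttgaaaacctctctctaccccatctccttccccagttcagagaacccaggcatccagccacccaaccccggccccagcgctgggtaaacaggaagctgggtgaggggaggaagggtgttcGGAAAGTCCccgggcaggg
Tnf, chr17:35202008-35202257, minus strand: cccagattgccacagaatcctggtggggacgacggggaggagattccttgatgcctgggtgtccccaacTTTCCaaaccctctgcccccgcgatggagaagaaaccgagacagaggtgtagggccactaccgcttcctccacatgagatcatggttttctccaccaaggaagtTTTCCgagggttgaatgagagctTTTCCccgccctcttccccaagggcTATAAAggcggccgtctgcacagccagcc
Lta, chr17:35205352-35205601, minus strand: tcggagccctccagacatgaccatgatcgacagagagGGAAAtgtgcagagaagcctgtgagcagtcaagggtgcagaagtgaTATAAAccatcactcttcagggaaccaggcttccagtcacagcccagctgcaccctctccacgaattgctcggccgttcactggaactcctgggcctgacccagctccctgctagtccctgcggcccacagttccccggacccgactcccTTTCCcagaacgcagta
Ifng, chr10:118440796-118441045, plus strand: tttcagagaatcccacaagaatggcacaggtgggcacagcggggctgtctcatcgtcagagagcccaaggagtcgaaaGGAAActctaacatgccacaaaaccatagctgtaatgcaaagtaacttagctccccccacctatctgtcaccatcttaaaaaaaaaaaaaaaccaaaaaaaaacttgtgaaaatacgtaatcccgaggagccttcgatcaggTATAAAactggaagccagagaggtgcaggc
Il13, chr11:53634703-53634952, minus strand: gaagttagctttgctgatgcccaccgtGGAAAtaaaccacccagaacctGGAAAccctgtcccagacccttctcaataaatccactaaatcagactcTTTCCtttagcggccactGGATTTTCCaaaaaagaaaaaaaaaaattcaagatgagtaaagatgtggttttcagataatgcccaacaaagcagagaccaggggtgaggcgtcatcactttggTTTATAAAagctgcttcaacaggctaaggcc
Il4 upstream start, chr11:53618670-53618915, minus strand: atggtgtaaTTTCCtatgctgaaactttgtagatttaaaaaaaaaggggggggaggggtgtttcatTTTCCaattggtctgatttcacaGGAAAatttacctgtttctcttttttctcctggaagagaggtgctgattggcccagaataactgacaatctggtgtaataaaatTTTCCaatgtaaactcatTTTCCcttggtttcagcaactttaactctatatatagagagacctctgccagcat
Il4 downstream start, chr11:53617339-53617588, minus strand: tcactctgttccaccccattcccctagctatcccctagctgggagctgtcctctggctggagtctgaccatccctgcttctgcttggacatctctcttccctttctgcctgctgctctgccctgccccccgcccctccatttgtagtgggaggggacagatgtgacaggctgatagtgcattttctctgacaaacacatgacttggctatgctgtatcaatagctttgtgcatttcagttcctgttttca

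All 10 genes had a window in the RefSeq table, 11 windows in all because Il4 has a pair. GGAAA was found in 9 of the 11 windows, against 55.6% of 32851 promoters of all genes, and TATAAA in 6 of 11 against 12.4%. TATAAA began 29 to 31 bases before the start in Tnf, Ifng, Il2, Il13 and Il17a, and 167 bases before it in Lta. The kappa-B pattern was found for Ltb and Il13, 2 of 11 windows against 4.93% of all promoters, and a looser form of it, GGG and CC with any 5 bases between, in 6 of 11 against 45.8%. TGANTCA was found in the Il17a window alone, 1 of 11 against 6.75%. Of the Il4 windows, the upstream one held 5 matches of GGAAA and the downstream one held none of the 4 patterns. These are matches of letters and not binding sites. The patterns were chosen with the expression results known, the looser kappa-B form before the tighter one.

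Ltb dominated the 10 transcripts. Its level was 958 TPM in library 1, 812 in library 2 and 1189 in library 3, a mean of 986 ± 190 TPM (SD, n = 3), which placed it 119th of all 55536 genes and 95th of the 22028 protein-coding genes. It made up 80.6%, 81.4% and 85.8% of the summed TPM of the 10 genes. Behind it came Il4, the type 2 cytokine that drives B cell class switching to IgE, at 93.4 ± 21.6 TPM, and Lta at 65.7 ± 20.7 TPM. Tnf at 18.7 ± 5.94, Ifng at 13.0 ± 11.7 and Il21 at 7.08 ± 3.17 TPM formed a middle tier. Il5 at 2.53 ± 1.58, Il2 at 2.34 ± 0.527 and Il13 at 1.59 ± 0.888 TPM were near the detection level, and Il17a at 0.127 ± 0.10 TPM was under it.

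**Figure D1:**
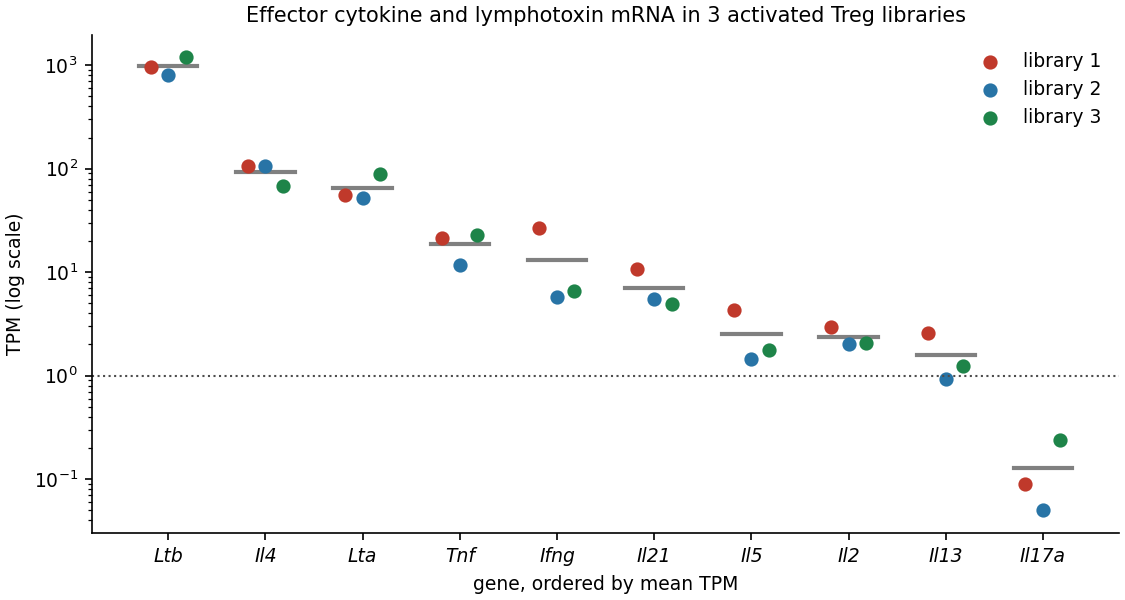
Level of the 10 genes in TPM on a log axis, 1 point per library, with the mean as a grey bar and the detection level of 1 TPM dotted. Ltb lies near 1000 TPM, the next genes near 100 TPM or below, and the Il17a points all lie below 0.3 TPM.

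With detection defined as 1 TPM or more in every library, 8 of the 10 genes were detected, against 48.1% of protein-coding genes. Il13 missed this level in library 2 at 0.930 TPM, and Il17a missed it throughout. Ordered by mean log2(TPM + 0.1), 5 of the 9 steps between neighbours were beyond the spread, meaning that all libraries gave 1 sign and the mean difference exceeded 2 SD. Ltb stood 3.41 ± 0.62 log2 units above Il4, Lta 1.82 ± 0.40 above Tnf, Il21 1.49 ± 0.31 above Il2, Il5 0.60 ± 0.12 above Il13, and Il13 2.86 ± 0.93 above Il17a. The other neighbours were not separated: Il4 and Lta differed by 0.52 ± 0.79, Tnf and Ifng by 0.83 ± 1.04, Ifng and Il21 by 0.59 ± 0.64, and Il2 and Il5 by 0.03 ± 0.51. On this log scale Il2 comes before Il5, the reverse of their order by mean TPM. Under a sign-flip test, 3 libraries cannot give a two-sided p below 0.25, so no p is attached to these steps.

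The question of how evenly the libraries carried each gene was put by a chi-square test of the reads against the TMM-scaled library sizes, with Benjamini-Hochberg adjustment over all 17190 genes that had a mean of 10 or more reads. Of the 9 genes tested, 8 passed at 0.05, and of all genes 79.8% did, so passing is common at this depth. The direction split the genes. Ifng, Il5, Il13 and Il21 were highest in library 1, Ltb, Lta and Tnf in library 3, and Il4 in library 2. Of all genes tested, 26.5%, 26.3% and 27.0% were called and highest in libraries 1, 2 and 3. These were 4555, 4515 and 4644 of the 13714 genes called. For Il4, libraries 1 and 2 were nearly level, and with library totals in place of TMM library 1 was the higher, at 34.8 against 34.6 CPM. A range of 2-fold or more between the highest and lowest library was reached by 4 genes, Ifng, Il5, Il13 and Tnf, against 28.6% of all genes. The median range was 1.91-fold for the genes tested, 1.5-fold over all genes and 1.34-fold over genes with a mean of 100 reads or more.

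**Figure D2:**
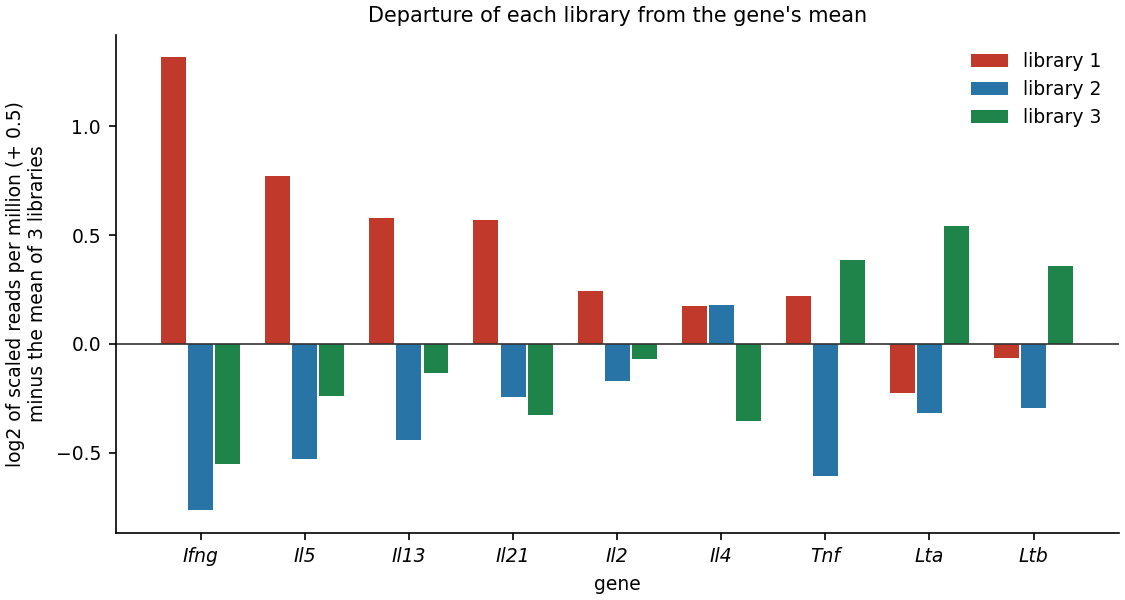
Departure of each library from the gene's mean, in log2 of TMM-scaled reads (CPM) with 0.5 added, for the 9 genes tested. Library 1 bars rise highest for Ifng, Il5, Il13, Il21 and Il2, library 3 bars for Tnf, Lta and Ltb, and for Il4 the library 3 bar points down.

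In TMM-scaled reads of the larger gene table, Ltb, Lta and Tnf were each highest in library 3 and lowest in library 2. Ltb had 17762, 13999 and 26218 reads in libraries 1, 2 and 3, with exact 95% Poisson intervals of 17502 to 18025, 13768 to 14233 and 25902 to 26537. These intervals cover counting error only and are not scaled for library size, so they do not compare the libraries. After scaling, library 3 exceeded library 2 by 1.57-fold (chi-square 2108, 2 degrees of freedom). The smaller deposited gene table, which holds 10.2%, 12.8% and 7.15% of these Ltb reads, gave another order: scaled reads there were 213, 222 and 213 CPM, library 2 was the highest, and the 1.05-fold range did not pass (adjusted p = 0.364). Lta had 1407, 1220 and 2656 reads, and 55.6, 52.0 and 89.4 TPM. Library 3 stood apart and libraries 1 and 2 were close, a 1.83-fold range (chi-square test, Benjamini-Hochberg adjusted p = 8.08e-95), and without library 3 the call was lost at an adjusted p of 0.147. For Tnf, the inflammatory cytokine of the family, the reads were 647, 331 and 803 and the levels 21.4, 11.8 and 22.7 TPM. Here library 2 was low and the others were near each other, a 2.03-fold range (adjusted p = 2.16e-27), and without library 2 the adjusted p was 0.0879.

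Partners in the lymphotoxin complex were present at unequal levels. Ltb exceeded Lta 17.2-fold, 15.6-fold and 13.3-fold in TPM in libraries 1, 2 and 3, a log2 ratio of 3.93 ± 0.19. Of the Ltb and Lta transcripts together, 93.8% ± 0.767 were Ltb. Ltb exceeded Tnf 44.7-fold, 68.6-fold and 52.4-fold, and Lta exceeded Tnf 2.59-fold, 4.39-fold and 3.94-fold. All 3 ratios were beyond the spread. In the smaller table, without division by length, the ratios kept their sign but were far smaller for Ltb, at log2 1.61 ± 0.34 against Lta and 2.96 ± 0.58 against Tnf, where the larger table gave 5.76 ± 0.31 against Tnf. B cells also make lymphotoxins. The 5 B cell markers, of which 4 were detected and none was at 0 in every library, summed to 42.9, 40.2 and 67.7 TPM, highest in library 3 like Ltb, Lta and Tnf. The part of these cells in the library 3 values was not tested, and in bulk RNA a different number of cells of a type and a different amount of RNA per cell cannot be told apart.

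Il4 set the type 2 cytokines apart. Its level was 106 TPM in libraries 1 and 2 and 68.5 TPM in library 3, from 1057, 982 and 805 reads. Library 3 was low, a 1.45-fold range below library 2 (chi-square test, adjusted p = 9.00e-18), and without it libraries 1 and 2 were not distinguished (adjusted p = 0.958). Il5, the growth and survival factor of eosinophils, had 123, 38.3 and 59 estimated reads and 4.35, 1.46 and 1.78 TPM. Il13, which acts on epithelium and mucus production, had 57, 19 and 32 reads and 2.60, 0.930 and 1.24 TPM. Both were high in library 1 and low in library 2, with ranges of 3.00-fold for Il5 (adjusted p = 7.65e-12) and 2.78-fold for Il13 (adjusted p = 7.48e-05). Without library 1 neither passed, at adjusted p = 0.260 for Il5 and 0.291 for Il13.

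The 3 genes of this locus therefore did not share a profile over the libraries. Il4 exceeded Il13 40.7-fold, 114-fold and 55.3-fold in TPM in libraries 1, 2 and 3, and exceeded Il5 24.3-fold, 72.6-fold and 38.5-fold. Il4 made up 93.8%, 97.8% and 95.8% of the summed TPM of Il4, Il5 and Il13. The ratio of Il13 to Il5 moved less, at 0.598, 0.637 and 0.697, a log2 ratio of -0.60 ± 0.12. In the other deposited gene table, in CPM and not divided by length, it was -0.13 ± 0.45 and not beyond the spread. Mast cells, basophils and type 2 innate lymphoid cells also make these cytokines. None of the 6 mast cell and basophil markers was detected, Mcpt8 and Tpsb2 were at 0, and the sum was 0.380 to 1.07 TPM. All 5 markers used for type 2 innate lymphoid cells were detected, with sums of 156, 213 and 84.2 TPM, but Tregs are known to express several of them, such as Il1rl1 and Klrg1. The part of such cells in the Il4, Il5 and Il13 values was not tested.

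**Figure D3:**
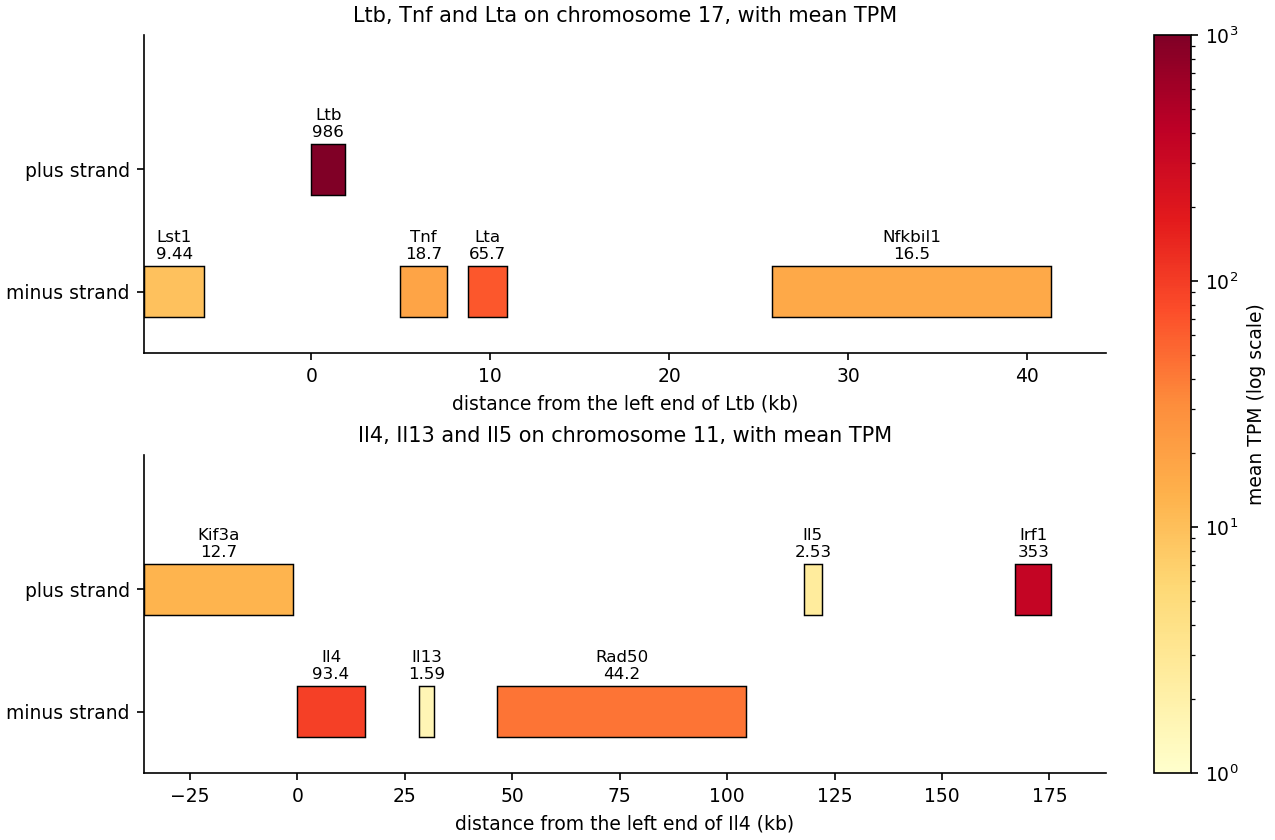
Gene maps drawn to scale in kb with the mean TPM under each name and as colour on a log scale, for the chromosome 17 locus (upper panel) and the chromosome 11 locus (lower panel). Ltb at 986 TPM lies beside Tnf at 18.7, and Il4 at 93.4 TPM lies beside Il13 at 1.59.

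Neighbouring genes were read for comparison. Il4 and Il13 are separated by 12654 bases and lie on the same strand, and Rad50, a DNA repair gene that lies between Il13 and Il5, had 44.3, 53.6 and 34.7 TPM. Its highest library was library 2 and its lowest library 3, as for Il4 and unlike Il13 and Il5. Kif3a, a kinesin gene 1014 bases to the other side of Il4, had 13.2, 13.7 and 11.2 TPM with the same highest and lowest library. Irf1, an interferon-induced transcription factor 44907 bases beyond Il5, had 426, 304 and 328 TPM and was highest in library 1 and lowest in library 2, as Il5 was. On chromosome 17, both flanking genes were highest in library 3 and lowest in library 2, as Ltb, Tnf and Lta were in the larger gene table. Of the 13714 genes called, 4555, 4515 and 4644 were highest in libraries 1, 2 and 3. The lowest library was 1 for 3984 of them, 2 for 3678 and 3 for 6052, so such matches are common. Any link along the locus was not tested. Lst1 had 8.5, 7.92 and 11.9 TPM from 59, 51 and 97 reads (chi-square test, adjusted p = 0.0102). Nfkbil1 had 15.7, 15.4 and 18.3 TPM, a range of only 1.25-fold (adjusted p = 6.32e-04).

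Ifng was the least even of the 9 genes tested. Its level was 26.5 TPM in library 1 against 5.76 and 6.64 TPM in libraries 2 and 3, from 582, 117 and 164 estimated reads. Library 1 alone was high, a 4.61-fold range over library 2 (chi-square test, adjusted p = 4.16e-100). Without library 1 the other libraries differed 1.18-fold and the call was lost (adjusted p = 0.235). The gene's departure in library 1 was 1.32 on the log2 scale, and 1.30 after a trend of each library with transcript length was removed, so length scaling hardly moved it. Ifng was above Tnf in library 1 and below it in libraries 2 and 3, with TPM ratios of 1.24, 0.487 and 0.293, the only one of 11 pairs examined that was not beyond the spread. It was below Il4 in every library, at 0.25, 0.0543 and 0.0969 of the Il4 level.

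Other transcripts moved with Ifng. Gm49751, an unclassified gene model that lies on the same strand within Ifng, had 77.7, 7.57 and 6.99 reads, so some reads at this place could have been assigned to either. Tbx21, which encodes the type 1 regulator T-bet, was also highest in library 1, at 45.2, 19.5 and 11.8 TPM. Natural killer cells and CD8 T cells make interferon gamma too. Of 7 natural killer markers 4 were detected, Ncr1 was at 0 in every library, and the sums were 31.1, 36.0 and 26.4 TPM. Gzma, which activated T cells also express, made up most of these sums and was highest in library 2. The other 6 markers summed to 10.8, 4.59 and 10.1 TPM, with libraries 1 and 3 close. Among them Klrd1 was highest in library 1, at 5.02, 1.63 and 2.30 TPM. Eomes, at 3.37, 1.81 and 4.67 TPM, and Klrb1c, at 2.31, 1.09 and 2.91 TPM, were highest in library 3. The CD8 markers Cd8a and Cd8b1 summed to 26.2, 20.4 and 28.4 TPM, highest in library 3. The erythroid, neutrophil, dendritic and monocyte sums were highest in library 1. Of the neutrophil markers 0 of 5 were detected and Elane was at 0, with sums of 9.81, 0.690 and 1.04 TPM. Monocyte and macrophage markers, 4 of 6 detected, summed to 119, 62.0 and 76.4 TPM, and dendritic markers, 1 of 6 detected, to 467, 141 and 304 TPM, mostly Cd74. The part of these cells in the library 1 values of Ifng, Il5, Il13 and Il21 was not tested.

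Il2 and Il21, neighbours on chromosome 3 that signal through the common gamma chain, differed in level. Il2, the growth factor of T cells, had 2.95, 2.00 and 2.08 TPM from 61.4, 38.5 and 50.6 estimated reads. It was the single gene tested here that did not pass, with a 1.45-fold range (chi-square test, adjusted p = 0.165). Il21, a helper cytokine for B cells, had 10.7, 5.55 and 4.97 TPM from 556, 287 and 322 reads. Library 1 was high, with a 1.91-fold range over library 3 (adjusted p = 6.40e-25), and without library 1 the adjusted p was 0.523. The Il2 level was 0.275, 0.360 and 0.419 of the Il21 level, a log2 ratio of -1.49 ± 0.31. Il4 exceeded Il2 35.8-fold, 53.0-fold and 32.9-fold.

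Il17a was represented by 2, 1 and 6 reads. These give 0.0900, 0.05 and 0.240 TPM, with exact 95% Poisson intervals of 0.0109 to 0.325, 0.00127 to 0.279 and 0.0881 to 0.522 TPM, which overlap and cover counting error only. It had too few reads for the chi-square test. Il17f, its close relative 42649 bases away on the other strand, had 0.590, 0.410 and 0.820 TPM and did not pass (adjusted p = 0.0843). Markers of gamma-delta T cells, another source of interleukin 17, were detected for 3 of 4 genes and summed to 63.4 to 69.9 TPM. Their part in the Il17a reads was not tested.

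Most of the genes were represented by 1 annotated transcript. Of the 9 genes with 10 or more reads, 8 had 1 transcript with 50% or more of the gene's TPM in every library, and Il4 was the exception. Il2, Il5, Il13 and Lta have 1 annotated transcript. Tnf-202 was listed at 0, and the retained-intron transcript of Ifng had 6.02% of the gene's TPM in library 3 and 0 in libraries 1 and 2.

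Ltb was divided between its coding transcripts. Ltb-203, whose 5′ end lies 187 bases downstream of that of Ltb-201, had 56.7%, 54.8% and 51.0% of the gene's TPM in libraries 1, 2 and 3, and Ltb-201 had 39.3%, 41.8% and 45.4%. The retained-intron transcript Ltb-202 had 3.69% ± 0.315. Both coding transcripts have 3 exons.

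Il4 was spread over 4 transcripts. Il4-204, which begins 1331 bases downstream of the first start, at the downstream window printed above, had 37.2%, 36.7% and 33.4%. Il4-201, which begins at the upstream window, had 28.7%, 27.6% and 33.96%, and Il4-203, which begins 317 bases after it, had 27.9%, 24.4% and 21.5%. The 2 transcripts with the upstream starts together held 54.7% ± 2.42 of the Il4 TPM. The noncoding Il4-202 had 9.53% ± 2.97.

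Il21 was mainly Il21-201, at 81.8%, 88.5% and 84.9%. Its retained-intron transcript Il21-203 had 9.41%, 11.5% and 14.9%, and the short Il21-202 had 8.85% in library 1 and was listed at 0 in the others. These shares are the authors' estimates, which divide reads that fit several transcripts.

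**Figure D4:**
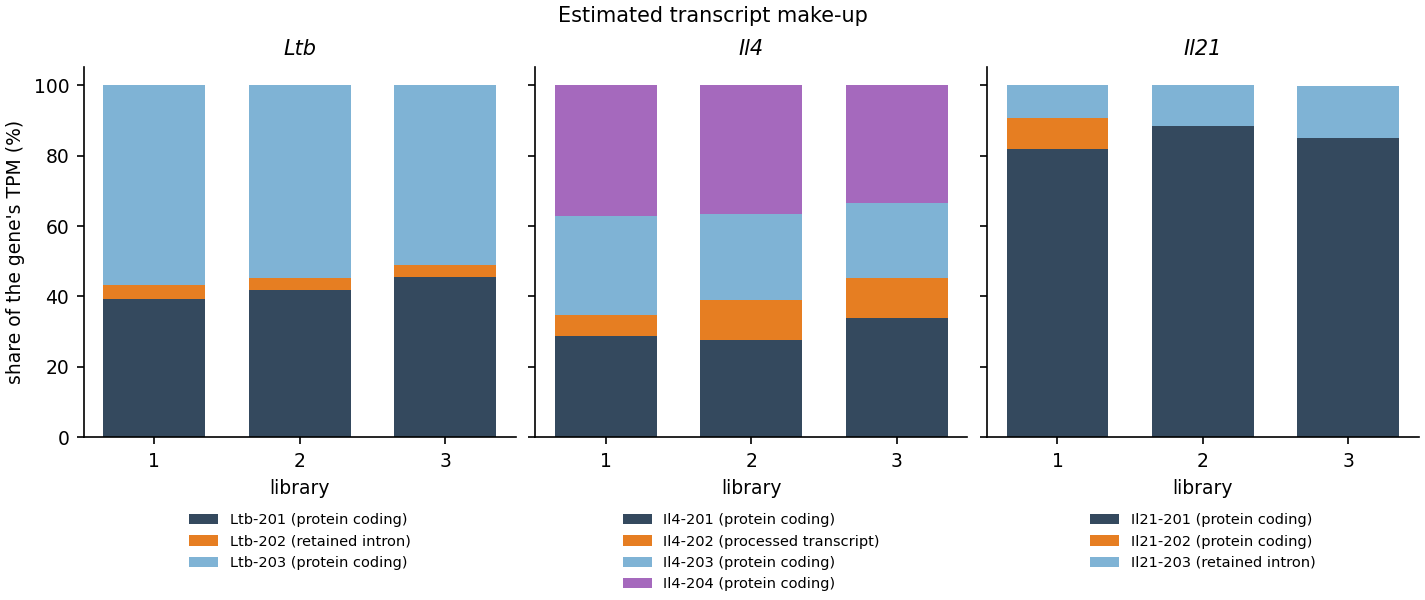
Share of the gene's TPM in percent on each annotated transcript of Ltb, Il4 and Il21, 1 stacked bar per library. Ltb is divided mainly between Ltb-201 and Ltb-203, Il4 has no transcript above 40%, and Il21-201 fills over 80% of each Il21 bar.

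Receptors for these ligands were at unlike levels in the same libraries. Of 17 receptor genes 12 were detected. All 14 that could be tested differed between libraries, against 79.8% of all genes tested, so this is common at this depth. Of these 14, 5 were highest in library 1, 6 in library 2 and 3 in library 3. Highest were Il2rg, the common gamma chain, at 817 ± 190 TPM and Il2rb, shared by interleukins 2 and 15, at 717 ± 94.0 TPM. Ifngr1, the ligand-binding chain for interferon gamma, followed at 350 ± 174 TPM, with 544, 301 and 206 TPM in libraries 1, 2 and 3, the same highest library as Ifng. Il4ra had 204 ± 52.6, Il21r 165 ± 28.6 and Il2ra 158 ± 6.12 TPM. At the other end, Il13ra2 was at 0 in every library, Il5ra at 0.120, 0 and 0.0800 TPM, and Il17rc at 0.210 ± 0.156 TPM.

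Ltb at 986 TPM stood far above its receptor. Ltbr, the receptor of the membrane lymphotoxin complex, which is known mainly from stromal and myeloid cells, had 1.84, 1.08 and 1.88 TPM. Among the TNF receptors, Tnfrsf1b (TNFR2) had 133, 111 and 74.5 TPM and Tnfrsf1a (TNFR1) 23.4 ± 3.71 TPM. Tnfrsf1b was lowest in library 3, where Tnf and Lta were highest. Library 3 was the lowest for 6052 of the 13714 genes called, against 3984 for library 1 and 3678 for library 2. A link between receptor and ligand levels was not tested. The partner chains Ifngr2 at 57.5 ± 6.68 and Il17ra at 124 ± 32.0 TPM were detected, whereas Il13ra1 at 0.607 ± 0.146 TPM was not.

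**Figure D5:**
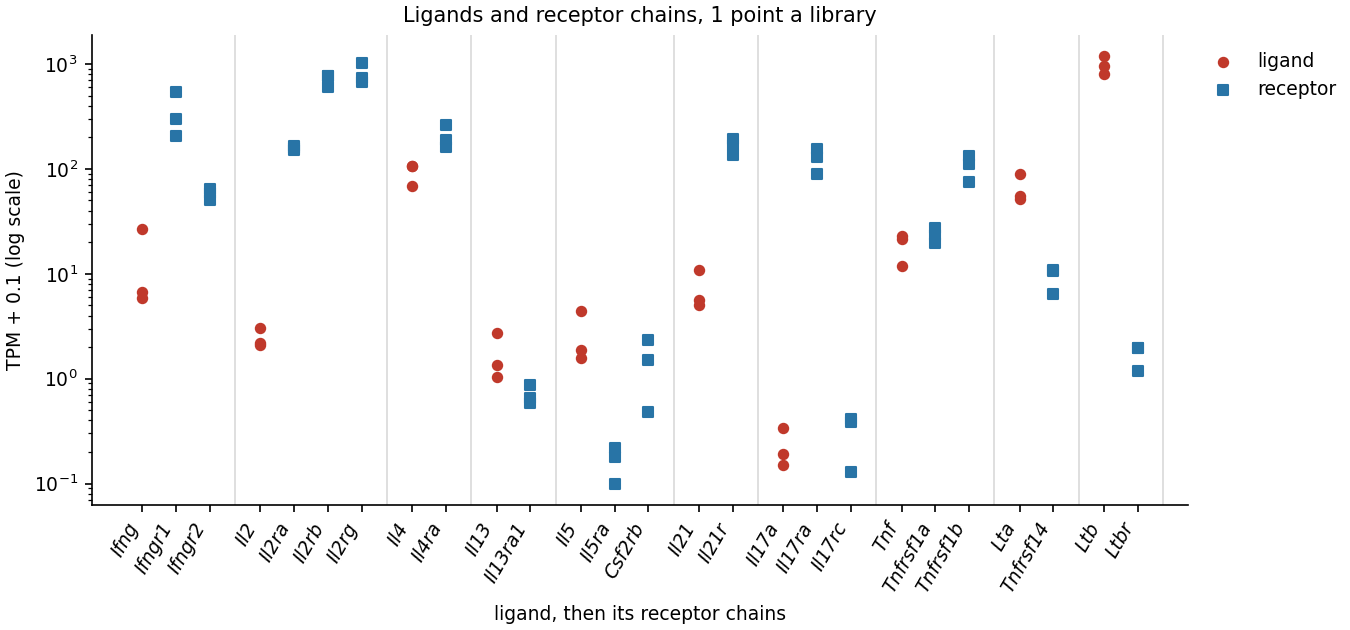
TPM + 0.1 on a log axis for each ligand (red circles) and its receptor chains (blue squares), 1 point per library, with chains shared by several ligands drawn once. The receptor points of Ifng, Il2, Il4 and Il21 lie above their ligand, and Ltbr, Il5ra and Il13ra1 lie below theirs.

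Transcription factors that regulate these cytokines were nearly all detected, 24 of 25, with a median of 86.7 TPM. All 25 differed between libraries, against 79.8% of all genes tested. Of these 25, 16 were highest in library 1, 7 in library 2 and 2 in library 3. Of all genes tested, 26.5%, 26.3% and 27.0% were called and highest in libraries 1, 2 and 3. High levels were found for Batf at 255 ± 32.0, Stat3 at 202 ± 58.3, Nfatc1 at 150 ± 34.4, Gata3 at 145 ± 54.6 and Ikzf1 at 134 ± 11.9 TPM. Gata3, the type 2 regulator, had 184, 168 and 82.1 TPM and was lowest in library 3, as Il4 was. The same library was the lowest for 6052 of the 13714 genes called, and a link to Il4 was not tested. Eomes at 3.28 ± 1.43 and Bcl6, the regulator of follicular helper T cells, at 9.42 ± 2.15 TPM were among the lowest.

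Among 17 other cytokines and chemokines of T cells, 7 were detected and Il9 and Il24 were at 0 in every library. Il16 at 268 ± 13.7, Ccl5 at 263 ± 136, Tgfb1 at 107 ± 2.73, Il10 at 33.7 ± 11.1 and Ebi3 at 32.5 ± 2.55 TPM were highest. Of 11 tested, 10 differed between libraries, against 79.8% of all genes tested, with 6 highest in library 1. A 2-fold range or more was reached by 7, against 28.6% of all genes tested. Ccl5, a chemokine of activated T cells, had 420, 187 and 182 TPM, high in library 1 like Ifng, while the inhibitory cytokine Il10 had 30.4, 46.1 and 24.7 TPM and was highest in library 2. Without library 1, 6 of these genes differed, and of all genes tested 65.1% did.

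Other ligands of the TNF family were below Ltb. Of 15, 8 were detected. All 10 tested differed between libraries, against 79.8% of all genes tested, with 7 highest in library 1 and 1 in library 3. Without library 1, 6 differed, against 65.1% of all genes tested. The highest were Tnfsf8 (CD30 ligand) at 110 ± 13.7, Cd40lg at 74.6 ± 16.1, Tnfsf11 (RANKL) at 43.5 ± 5.11, Tnfsf13b (BAFF) at 15.8 ± 3.21 and Tnfsf14 (LIGHT) at 14.2 ± 4.79 TPM. The lowest were Tnfsf15 at 0.147, Tnfsf18 at 0.0733 and Eda at 0.00333 TPM.

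Genes of signalling downstream of the TNF and lymphotoxin receptors were detected in 13 of 13 cases, with a median of 65.1 TPM. None reached a 2-fold range, against 28.6% of all genes tested. Among the 11113 genes with a mean of 100 reads or more, as these all had, 1227 reached it. The chi-square test was passed by 12, against 79.8% of all genes tested. Traf1 at 162 ± 40.5, Birc3 at 138 ± 11.4, Traf5 at 92.6 ± 16.7, Birc2 at 74.2 ± 6.82 and the feedback inhibitor Tnfaip3 (A20) at 66.5 ± 18.6 TPM were highest. Proteins that bind and destabilise or stabilise cytokine mRNAs were likewise detected in 8 of 8 cases. The test was passed by 7, against the same 79.8%. Zfp36l2 had 274, 554 and 176 TPM, the only one of these with a 2-fold range, and was highest in library 2. Elavl1 at 133 ± 14.1 and Zfp36, which binds AU-rich elements such as that of the Tnf mRNA, at 123 ± 13.2 TPM varied less.

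The genes whose profile over the 3 libraries was nearest to a member were found among 10162 protein-coding genes with a mean of 100 reads or more, as the Euclidean distance of centred log2 TMM-scaled CPM. For Ltb these were Hist1h4m at a distance of 0.0147, Slirp at 0.0150 and Phactr2 at 0.0199. For Lta they were Cd160 at 0.0411, Cdk10 at 0.0497 and Chek2 at 0.0514, and for Il4 Spryd7 at 0.00220, Cacna1d at 0.00846 and Apeh at 0.00897. Within a distance of 0.1 lay 59 genes for Ltb, 15 for Lta and 380 for Il4, so each of these profiles over 3 libraries is shared by other genes.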

How the data were processed

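Polyadenylated RNA of activated mouse Tregs was sequenced in 3 libraries. Per the labels they are technical replicates of 1 biological replicate. Each library had a gene and a transcript table on mm10 and GENCODE M21, and a smaller gene table on GENCODE M4, per the deposited library notes. Which aligner and quantifier were used, and whether libraries were stranded, is not given in the sources used here. Reads from a gene and its antisense partner may therefore be mixed.

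Expected counts as deposited are the authors' estimated reads per gene and are not normalized. The deposited TPM values are the authors' reads divided by effective length and brought to 1 common total, and the deposited FPKM values are divided by length and read number. The percent of a gene's TPM on each transcript follows the column layout of RSEM, per the file headers. The smaller deposited table holds whole-number counts and was an alternative only. Its median share of the larger table's reads was 52.0% to 53.3% for genes of 100 to 1000 reads and 4.27% to 5.23% for genes of 20000 or more. Shares also vary at like depth: Il21 kept 9.76% to 14.3% and Il4 49.2% to 53.0%. Spike-in and transfer RNA entries, 0.166% to 0.229% of reads, were left out.

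Expected counts were rounded and tested by chi-square (2 degrees of freedom), with expectations from TMM-scaled library totals (edgeR 4.0.16, R 4.3.3). Genes needed 10 reads on average, and Benjamini-Hochberg adjustment ran over all of them. Python 3.11.15, numpy 2.4.6, scipy 1.17.1, pandas 2.3.3 and matplotlib 3.10.9 were used, and the test was checked on simulated data. The simulated counts had Poisson spread only, as the test assumes, so the check does not cover further spread between libraries. Log ratios used TPM + 0.1. Alternatives were DESeq2 1.42.0 size factors, library totals, other filters, pseudocounts and tables, and each library left out. Named genes were all 10 members, the 6 highest and 3 lowest receptors and regulators, the 5 highest and 3 lowest of other lists, neighbours and nearest profiles. Some genes named by this rule are left out of the text but counted in their lists. Genes outside this rule (Tbx21, Ltbr and other receptors of the members, Foxp3, Cd74) were named after their values were seen. The members and lists were chosen with earlier results of these data known.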

Additional observations from a re-analysis of the deposited data

How the results depend on the processing

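Each library decided some of the differences. Of the 8 genes that differed between libraries, 4 to 7 remained called when 1 library was left out, and of the 4 with a 2-fold range, 1 to 3 were counted. The lowest values, 4 and 1, came without library 1, where 65.1% of all genes tested passed against 79.8% with every library. Detection in every library fell from 8 to 5 of the 10 genes when 5 TPM was asked for. In the other deposited table, as CPM and not per length, 3 of the 9 neighbours in the order were beyond the spread against 5. There 9 receptor genes differed between libraries against 14, and 64.9% of all genes tested passed against 79.8%. Ltb turned there: library 2, its lowest otherwise, was its highest, and the difference did not pass (adjusted p = 0.364). The cause was not tested. Of the 11 log2 ratios, 10 were closer to 0 there, in CPM, than in TPM of the larger table. Il4 to Il13 had 4.87 against 5.89, and Il2 to Il21 -0.85 against -1.49. CPM keeps gene length in a ratio and TPM divides it out. Mean effective lengths were 527 bases for Il4 and 1156 for Il13. These ratios were not compared in the same unit, so the shifts do not separate table from unit. In the other deposited table and with library totals Il4 was highest in library 1. In that table the lowest library became 3 for Il13 and 2 for Il21. Leaving out 1 library gave 4 to 7 such neighbours and 9 to 11 of the 11 pairs. Of the 9 nearest-profile genes, 2 remained with a mean of 500 reads, since fewer genes were compared. Without library 1 the ratio of Ifng to Tnf became beyond the spread at -1.39, and without library 3 that of Ifng to Il4 was not, at -3.09. With the posterior mean the main transcript held 94.5% of Ifng, 80.4% of Il21 and 97.5% of Tnf. The ratios of pairs kept their sign in every alternative. No paired analysis was possible because there was 1 group. Depth limits Il17a, with 1 to 6 reads, and Il13, with 19 to 57. Removing a trend with transcript length, an alternative chosen after seeing the data, turned no departure of a gene from its mean.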
